A study of Capra hircus with 20 samples.

Results

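Axon guidance ligands and receptors are the cues, and the cell surface proteins that read them, by which growing neurites choose a path. The members described here were 69 of the 21071 genes with a deposited expression value. They were chosen by gene symbol, after gene IDs had been matched to the goat annotation, as the semaphorins (20 genes), plexins (8), neuropilins (2), EPHA receptors (9), EPHB receptors (5), A-class ephrins (5), B-class ephrins (3), UNC5 genes (5), netrins (5), SLIT genes (3) and ROBO genes (4). The netrin receptor DCC and the plexin PLXNB2 were not analysed here.

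The hypothalamus of 20 female Jining grey goats was sequenced, with 5 goats at each of D1 (day 1), M2 (day 60), M4 (day 120) and M6 (day 180). All goats were of the same breed and sex, no treatment was given by the labels, and each goat gave 1 strand-specific library made from RNA depleted of rRNA. The study compared these stages from birth to sexual maturity. The unit is FPKM, fragments scaled by exon length and by the mapped fragments of the library, which allows levels to be compared between genes, and its values summed to between 260199 and 377479 per library.

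Semaphorins act through plexins, with neuropilins as co-receptors for the secreted class 3 semaphorins. Ephrins are bound to the membrane and act on EPH receptor tyrosine kinases of the neighbouring cell, netrins attract through DCC or repel through UNC5 receptors, and SLIT proteins repel through ROBO receptors. In the hypothalamus the semaphorin and neuropilin pathway is best known for guiding the neurons that make gonadotropin-releasing hormone to their place and their axons to the median eminence.

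Several libraries stood apart in marker genes of other tissue or cells. Only 3 of 14 hypothalamic marker genes were above 0 in every library, GHRH was listed at 0 in 19 libraries and KISS1 in 15, and the summed FPKM of the 14 genes ran from 5.69 to 943. Markers of striatum summed to 715 in D1 replicate 4, 351 in M6 replicate 2 and 184 in M2 replicate 4 against at most 19.3 elsewhere, markers of cortex to 62.4 in M4 replicate 1 against at most 9.01, and markers of thalamus to 98.8 in M4 replicate 2 against at most 35.4. Of the 3 thalamic markers, TCF7L2 (86.3 FPKM) and LHX9 (11 FPKM) were highest in M4 replicate 2, whereas PRKCD was highest in M2 replicate 1 (5.07 FPKM). The 5 libraries named here for their sums of striatal, cortical or thalamic markers are called the regional libraries below. The sum of 12 mature oligodendrocyte genes was between 528 and 2848 FPKM in 6 libraries (D1 replicate 4, M2 replicates 1 and 4, M4 replicates 1 and 2, M6 replicate 4) and between 6232 and 16583 in the other 14. M6 replicate 3 had the lowest sum of 10 mature neuron genes, 73.7 FPKM, followed by M2 replicate 1 with 204, against 548 to 2491 in the rest. In whole tissue, fewer cells of a type and less RNA per cell cannot be told apart.

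Most guidance genes were present at low to moderate levels. Of the 69 members, 67 reached 0.1 FPKM in at least 5 libraries and were tested. Averaged over the 20 libraries, 61 were at 1 FPKM or more and 13 at 10 FPKM or more. The median of the members' means was 3.62 FPKM, against 5.04 FPKM over the 16771 genes tested. The 2 members that did not pass were ROBO3 and UNC5CL, which is named after UNC5 but is not a netrin receptor of the same build, with means of 0.0204 and 0.0267 FPKM. UNC5CL was listed at 0 in 10 libraries.

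The highest mean of any member belonged to ROBO1, a SLIT receptor, with 30.2 FPKM. It was followed by EPHA4, a receptor for both ephrin classes, with 25.4 FPKM, and by the transmembrane semaphorins SEMA6D with 24.9 FPKM and SEMA4D with 22.4 FPKM. PLXNA2 (15.4 FPKM), ROBO2 (14.2), SEMA3C (14.1), EPHA5 (12.7), EFNB3 (11.4), SEMA3E (11), PLXNC1 (10.9), UNC5C (10.3) and EPHA6 (10.1) completed the members above 10 FPKM. ROBO1 ran from 11.1 to 73.7 FPKM, EPHA4 from 5.93 to 126, SEMA6D from 10.5 to 35.6 and SEMA4D from 4.30 to 41.4, so that neighbours in this order overlapped.

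**Figure D1:**
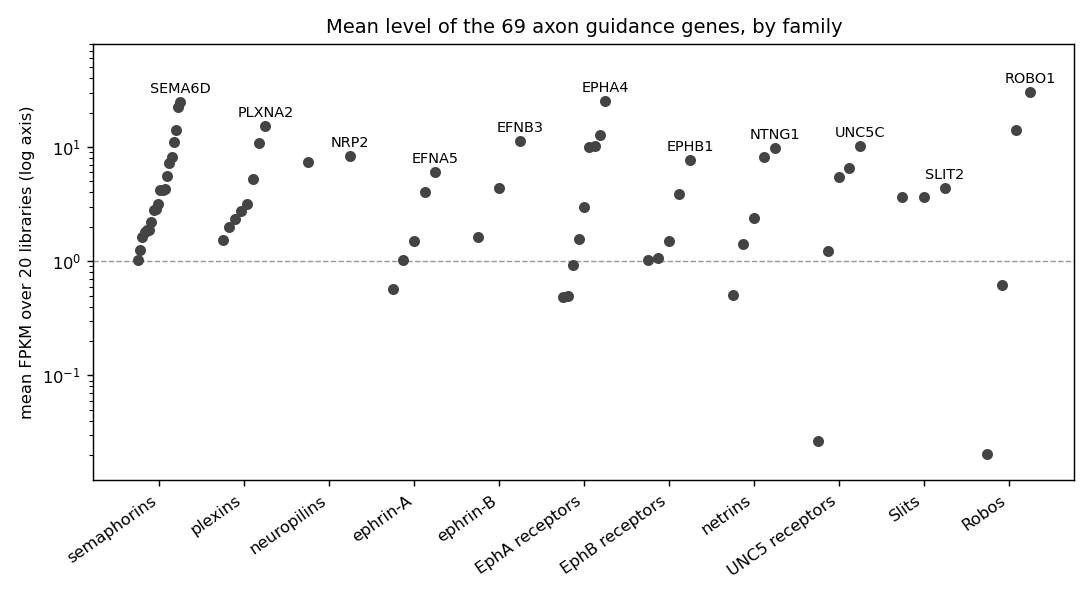
Mean FPKM over the 20 libraries (log axis) of each of the 69 members, 1 point per gene, grouped by family, with a dashed line at 1 FPKM. ROBO1 is highest at 30.2 FPKM, and ROBO3 and UNC5CL lie lowest at 0.0204 and 0.0267 FPKM.

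Within the families the levels were uneven. The 20 semaphorins had means from 1.03 (SEMA6C) to 24.9 FPKM and a median of 3.68, and the 8 plexins from 1.54 (PLXNA3) to 15.4 with a median of 2.97. Both neuropilins, the co-receptors of the class 3 semaphorins, were of like level, with 7.42 FPKM for NRP1 and 8.43 for NRP2. The 9 EPHA receptors ran from 0.488 (EPHA1) to 25.4 FPKM and the 5 EPHB receptors from 1.01 (EPHB4) to 7.69 (EPHB1). Among their ligands, EFNA5 led the A class with 6.03 FPKM before EFNA1 with 4.07, and EFNB3 led the B class before EFNB2 with 4.37. UNC5C was followed by UNC5D with 6.54 FPKM, and the netrins by mean were NTNG1 (9.74 FPKM), NTN4 (8.16), NTN1 (2.37), NTNG2 (1.42) and NTN3 (0.502). The 3 SLIT genes lay close together, with means of 3.62 FPKM for SLIT1, 4.41 for SLIT2 and 3.68 for SLIT3, while the endothelial receptor ROBO4 had a mean of 0.622 FPKM.

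The members lie apart in the genome. In the ARS1.2 assembly 66 members were placed on 24 chromosomes and 3 (PLXNA3, PLXNB3 and EFNB1) on unplaced scaffolds. 10 pairs of neighbours were less than 1 Mb apart, with EFNA4, EFNA3 and EFNA1 side by side at chr3:104598565-104666678, where the gaps were 9.06 and 38.2 kb, SEMA3B and SEMA3F 67.1 kb apart at chr22:50165470-50266718, and ROBO3 and ROBO4 1.66 kb apart at chr29:27654577-27689553. Neighbours did not always share a level. SEMA3E had a mean of 11 FPKM, and SEMA3A, 338 kb away on chromosome 4, had a mean of 2.21 FPKM. The means of EFNA4 and EFNA3 were nearer each other, with 1.03 and 1.49 FPKM.

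The stages were compared with limma on log2(FPKM + 0.1), and a member was called where the Benjamini-Hochberg adjusted p over all 16771 genes was under 0.05 and the log2 fold change at least 1 in size. No member was called in any of the 7 comparisons or in the test of any difference among the 4 stages, and very few genes of any kind were. In M2 vs. D1 the background was 0% of all genes called and 15.6% with an unadjusted p under 0.05, and 4 members had such a p. For M4 vs. D1 it was 0.0537% called and 8.71% at an unadjusted p under 0.05, with 2 members. Between M6 and D1, 0.00596% of all genes were called and 7.41% had an unadjusted p under 0.05, as did 8 members. M4 vs. M2 had 0% called and 8.68% at an unadjusted p under 0.05 (2 members), M6 vs. M2 had 0% and 6.14% (7 members, all lower at M6), and M6 vs. M4 had 0% and 6.87% (5 members, all lower at M6). When the 3 later stages were compared with D1 together, 0.0596% of all genes were called and 11.7% had an unadjusted p under 0.05, against 3 members. The test of any difference called 0.00596% of all genes, and 10.4% of them and 4 members had an unadjusted p under 0.05. The members with an unadjusted p under 0.05 were a larger share than the background in M6 vs. D1, M6 vs. M2 and, by little, M6 vs. M4, and a smaller share in the other tests.

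SEMA5B, a transmembrane semaphorin that repels axons, differed most between stages. It lies at chr1:66898764-67100710. Its FPKM in the 5 D1 libraries was 6.08, 4.17, 5.63, 3.70 and 6.72, and in the 5 M2 libraries 4.25, 3.60, 1.51, 3.79 and 4.57. At M4 it was 4.16, 2.32, 2.00, 3.79 and 1.44, and at M6 1.07, 0.897, 0.593, 1.11 and 2.14. Every M6 library was below every D1 library, whereas M2 and M4 overlapped D1, and the highest M6 library overlapped M2 and M4. In the order D1, M2, M4, M6 the stage means were 5.26 ± 1.28, 3.55 ± 1.2, 2.74 ± 1.18 and 1.16 ± 0.585 FPKM (SD, n = 5 for these and all later stage means). In M6 vs. D1 the log2 fold change was -2.16 with a standard error of 0.36 (95% interval -2.91 to -1.41), a ratio of 0.224, and its limma adjusted p of 0.0549 missed the threshold. The later stages together gave -1.25 with a standard error of 0.29 and an adjusted p of 0.0980, and the test of any difference an adjusted p of 0.108. The M6 vs. D1 result passed the threshold when D1 replicate 4 (adjusted p = 0.0139), M2 replicate 3 (0.0161), M4 replicate 1 (0.0246), M6 replicate 5 (0.0302), M4 replicate 5 (0.0422) or M2 replicate 1 (0.0475) was left out, and had an adjusted p between 0.0654 and 0.252 without each of the others. With the mapping rate of each library as a covariate, the smallest limma adjusted p of any member was 0.549 in M6 vs. D1 and 0.999 in the later stages. Of the variance of SEMA5B among the libraries, 71.0% lay between stages, the largest share of any member.

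Among the secreted class 3 semaphorins, SEMA3B and SEMA3F, neighbours on chromosome 22, had lower fitted values and SEMA3E a higher one in the later stages than at D1, and none passed the adjusted threshold. The FPKM of SEMA3B was 5.43, 3.80, 6.46, 1.37 and 19.5 at D1 and 0.562, 3.94, 9.49, 0.790 and 0.345 at M2. It was 2.47, 0.953, 4.72, 4.71 and 2.76 at M4 and 4.48, 1.15, 4.75, 1.29 and 4.84 at M6. The stages overlapped, D1 replicate 5 was far above the rest, and 3 of the 5 M2 libraries were below every D1 library. The log2 fold change of SEMA3B was -1.17 with a standard error of 0.63 in the later stages (limma adjusted p = 0.473). SEMA3F, a ligand of NRP2, had means of 1.5 ± 0.404 FPKM (D1), 0.958 ± 0.423 (M2), 1.88 ± 1.81 (M4) and 0.695 ± 0.508 (M6). Its M4 mean rested on 1 library at 5.03 FPKM, and M6 replicate 3 was listed at 0. SEMA3E, which binds PLXND1 without a neuropilin, had means of 7.27 ± 8.36 FPKM (D1), 13.3 ± 11.8 (M2), 14.6 ± 16 (M4) and 8.97 ± 4.22 (M6), and a log2 fold change of 0.84 with a standard error of 0.58 in the later stages. The SDs of SEMA3E were as large as the differences, with single libraries at 22.1 (D1), 32.8 (M2) and 42.3 (M4).

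The plexins were the receptor family with one direction at M2. All 8 had higher fitted values at M2 than at D1, with a median log2 fold change of 0.55, and 8 of 8 were higher under quantile and median-ratio scaling, but 6 of 8 with the mapping rate of each library as a covariate, and the median was 0.26 without M2 replicate 1, M2 replicate 3 and M6 replicate 3. At M4, 6 were higher than at D1 and 2 lower. In the later stages together, which include M2 and share the D1 libraries, all 8 were higher than D1, with a median of 0.27. There 6 of 8 were higher with that covariate and 6 of 8 without the 5 regional libraries. None of the 8 was called, and 1, PLXNA2, had an unadjusted p under 0.05. By M6 the split was 4 higher and 4 lower, and 8 higher without M6 replicate 3.

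PLXNA2, a class A plexin that serves SEMA6A and the neuropilin complexes, had the largest fitted difference of the 8. It lies at chr16:73724198-73956525. Its FPKM was 5.88, 6.86, 6.54, 10.3 and 4.57 at D1 and 43.8, 9.45, 41.6, 14.9 and 13.5 at M2. It was 15.3, 51.5, 16.8, 9.40 and 4.88 at M4 and 8.31, 7.44, 16.8, 12.1 and 8.75 at M6. The D1 libraries were close together and low, 3 later libraries were above 40 FPKM, and each later stage overlapped D1. The log2 fold change was 1.61 with a standard error of 0.50 in M2 vs. D1 (limma adjusted p = 0.167), 1.11 in M4 vs. D1 (adjusted p = 0.542) and 1.11 with a standard error of 0.40 in the later stages (95% interval 0.27 to 1.96, adjusted p = 0.297). Of the 3 libraries above 40 FPKM, 2 were M2 replicates 1 and 3, and without these 2 and M6 replicate 3 the log2 fold change of PLXNA2 was 0.90 in M2 vs. D1 (limma adjusted p = 0.990) and 0.82 in the later stages (adjusted p = 0.465). With the mapping rate in the fit it was 0.76 in M2 vs. D1 (limma adjusted p = 0.824) and 0.44 in the later stages (adjusted p = 0.999). PLXNB1, the receptor of SEMA4D, had means of 2.24 ± 0.494 FPKM (D1), 4.01 ± 2.27 (M2), 2.70 ± 1.6 (M4) and 3.83 ± 1.47 (M6), and a log2 fold change of 0.47 (standard error 0.35) in the later stages that turned to -0.28 with the mapping rate as a covariate. PLXNC1, the receptor of SEMA7A, had means between 9.30 ± 6.23 FPKM at D1 and 13.7 ± 9.09 at M4.

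**Figure D2:**
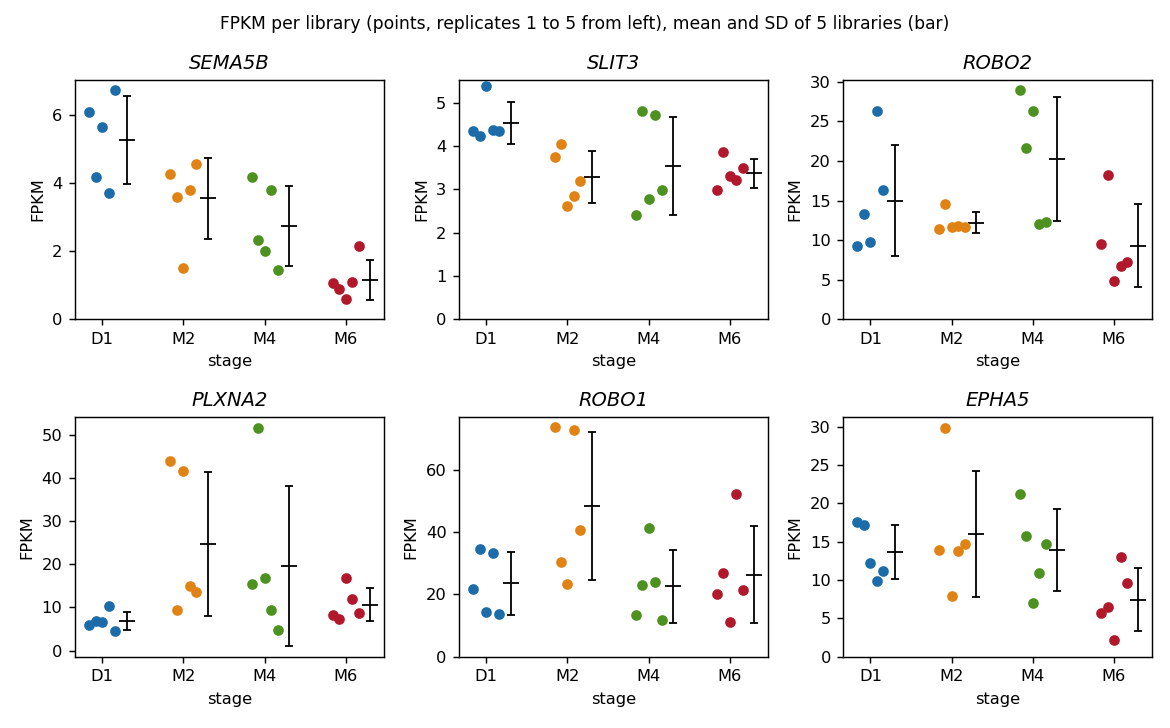
FPKM (y axis) of SEMA5B, SLIT3, ROBO2, PLXNA2, ROBO1 and EPHA5 in each library by stage (x axis), with points for single goats and bars for the mean ± SD (n = 5). The M6 points of SEMA5B lie between 0.593 and 2.14 FPKM, below all D1 points, while 3 of the 15 later points of PLXNA2 lie above 40 FPKM.

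The neuropilins and the 2 most abundant semaphorins differed little between stages against their spread. NRP1 had means of 8.78 ± 2.46 FPKM (D1), 8.30 ± 2.37 (M2), 6.19 ± 2.53 (M4) and 6.40 ± 2.61 (M6). NRP2 had 7.45 ± 4.84, 10.9 ± 4.29, 8.15 ± 2.59 and 7.26 ± 4.63 at the same stages. SEMA6D, a ligand of PLXNA1, had 28.3 ± 8.23 (D1), 26.2 ± 6.75 (M2), 24.3 ± 9.92 (M4) and 20.6 ± 3.92 (M6), and SEMA4D 29.6 ± 15.6, 21.2 ± 6.28, 17.5 ± 9.99 and 21.2 ± 7.64. The means of SEMA6D and SEMA4D were highest at D1, and in both the stages overlapped. Of the 20 semaphorins, 14 had lower fitted values at M6 than at D1 (median log2 fold change -0.34) and 13 in the later stages together (median -0.14), with 14 and 13 also under median-ratio scaling, and 0 were called. Without the 5 regional libraries these medians were -0.65 and -0.36.

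Of the 9 EPHA receptors, 8 had lower fitted values at M6 than at D1 and none was called. The median log2 fold change was -0.72, and 8 of 9 were lower under quantile and median-ratio scaling, without M6 replicate 3 (median -0.56) and with the mapping rate as a covariate (median -0.33). EPHA1 had a higher fitted value (log2 fold change 1.46), and EPHA3, EPHA5 and EPHA7 had an unadjusted p under 0.05. EPHA5, a receptor of the A-class ephrins found on neurons, was measured at 17.5, 17.2, 12.2, 9.94 and 11.2 FPKM at D1 and 13.9, 29.9, 7.87, 13.7 and 14.7 at M2. At M4 it was at 21.2, 15.7, 7.0, 10.9 and 14.7 FPKM and at M6 at 5.77, 6.49, 2.19, 13.1 and 9.67. Of the 5 M6 libraries, 4 were below every D1 library and 1 was within the D1 range. The log2 fold change was -1.05 in M6 vs. D1 (limma adjusted p = 0.617), -1.18 in M6 vs. M2 (adjusted p = 0.746) and -1.02 in M6 vs. M4 (adjusted p = 0.70).

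EPHA7, another neuronal receptor of the A-class ephrins, had means of 12.4 ± 9.31 FPKM (D1), 8.84 ± 6.05 (M2), 13.1 ± 9.45 (M4) and 5.42 ± 3.35 (M6). EPHA3 had 4.27 ± 3.53, 2.79 ± 1.05, 3.31 ± 3.60 and 1.52 ± 0.589 at these stages. The highest values of EPHA7 were 28.8 FPKM in D1 replicate 4 and 29.6 in M4 replicate 1, both regional libraries, and those of EPHA3 were 10.4 in D1 replicate 5 and 9.63 in M4 replicate 1. The log2 fold change in M6 vs. D1 was -1.14 for EPHA7 (95% interval -2.26 to -0.03, limma adjusted p = 0.655) and -1.23 for EPHA3 (-2.36 to -0.10, adjusted p = 0.638). EPHA2, at a mean of 0.50 FPKM, was at 3.05 and 2.28 in 2 M2 libraries and at or below 1.01 in the other 18, and its log2 fold change in M6 vs. M2 was -1.87 (adjusted p = 0.746). EPHA4 was at 8.89, 9.24, 11.8, 21.5 and 13.8 FPKM at M2 and at 126, 57.5, 11.1, 21.8 and 15 at M4. The 2 highest M4 libraries of EPHA4 were regional ones, and the other 3 lay within or near the M2 range, with a log2 fold change in M4 vs. M2 of 1.29 (adjusted p = 0.564).

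All 5 EPHB receptors had lower fitted values at M6 than at D1, with a median log2 fold change of -0.27 that was -0.09 without M6 replicate 3, 4 of 5 were lower under quantile and median-ratio scaling, and none had an unadjusted p under 0.05. EPHB1 had stage means of 7.98 ± 1.39 FPKM (D1), 7.94 ± 2.43 (M2), 6.88 ± 4.15 (M4) and 7.98 ± 1.69 (M6), and a log2 fold change of -0.01 in M6 vs. D1 with a 95% interval of -0.72 to 0.70. EPHB6, which lacks kinase activity, depended on single libraries, with 27.2 FPKM in D1 replicate 4 (34.9% of its sum over the 20 libraries), 11.4 in M6 replicate 2 and 9.15 in M4 replicate 1, all regional libraries, and at most 4.68 in the other 17. EPHB4, a receptor of EFNB2 on veins, had means between 0.836 ± 0.430 FPKM at M6 and 1.35 ± 0.777 at M2.

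No ephrin was called in any comparison of stages. All 5 A-class ephrins had higher fitted values at M2 than at D1, with a median of 0.33, and 5 of 5 under quantile (median 0.14) and median-ratio scaling, but 3 of 5 with the mapping rate as a covariate, and at M6 the split was 3 higher and 2 lower. EFNA4 had means of 0.719 ± 0.475 FPKM (D1), 1.09 ± 0.502 (M2), 0.838 ± 0.367 (M4) and 1.49 ± 0.451 (M6), and was the only member higher at M6 than at D1 with an unadjusted p under 0.05 (log2 fold change 1.07, limma adjusted p = 0.630). EFNA5 had 4.29 ± 1.19, 7.46 ± 4.25, 6.0 ± 4.36 and 6.38 ± 4.89, with single libraries at 14.5 FPKM (M2), 12.9 (M4) and 15.1 (M6). EFNA3, next to EFNA4 on chromosome 3, had 1.28 ± 0.486, 1.66 ± 0.573, 2.00 ± 1.16 and 1.01 ± 0.616. Of the 3 B-class ephrins, 1 was higher and 2 were lower at M2, and all 3 had lower fitted values at M6 than at D1 (median -0.60). At M6 they were 3 of 3 under quantile and median-ratio scaling and without M6 replicate 3 (median -0.36) and 2 of 3 with the mapping rate as a covariate (median -0.34), and 0 had an unadjusted p under 0.05. EFNB3 was at 34.2, 7.2, 8.66, 29.1 and 2.25 FPKM at D1 and at 5.79, 9.17, 1.05, 29.1 and 8.07 at M6. The ranges of EFNB3 overlapped almost fully, and its log2 fold change of -0.76 in the later stages had a standard error of 0.70 and turned to 0.81 with the mapping rate as a covariate.

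**Figure D3:**
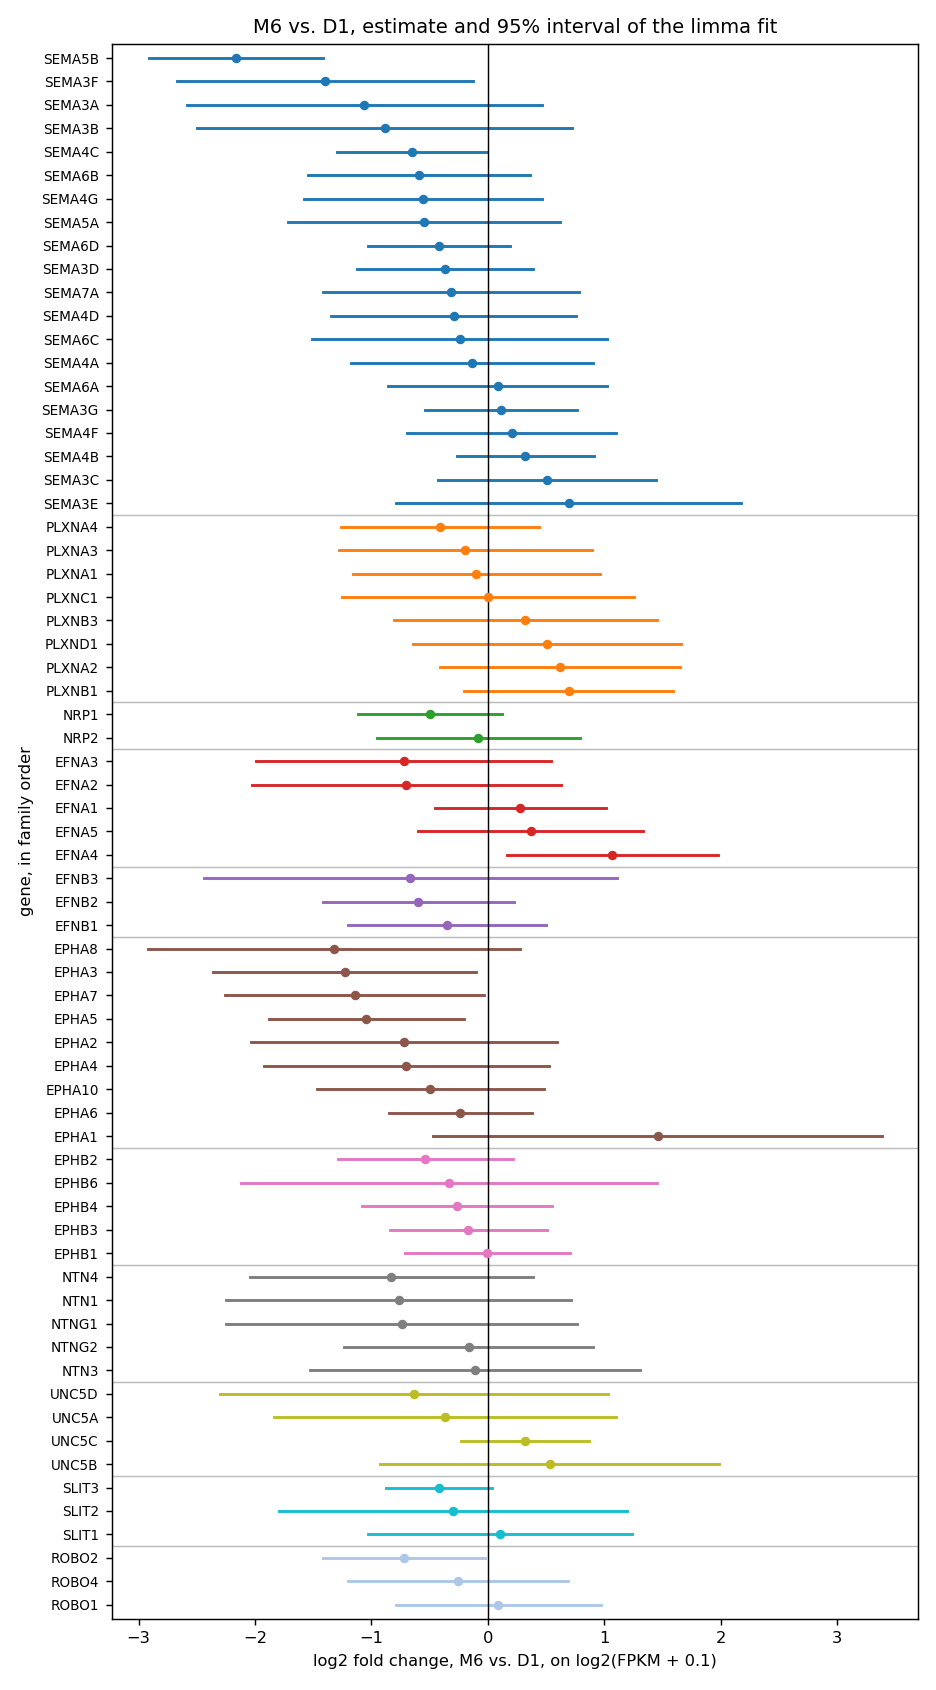
Fitted log2 fold change in M6 vs. D1 (x axis) of the 67 members tested, with 95% intervals, grouped by family (y axis). SEMA5B lies farthest to the left at -2.16, 8 of 9 EPHA receptors lie left of 0, and the intervals of most members include 0.

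Of the netrin pathway, no member differed between stages beyond its spread. UNC5C, a repulsive netrin receptor, had means of 8.21 ± 2.36 FPKM (D1), 11.6 ± 3.71 (M2), 11.3 ± 3.95 (M4) and 10.1 ± 2.09 (M6), and UNC5B, known mainly from vessels, 4.40 ± 2.22, 5.45 ± 2.13, 5.27 ± 3.78 and 6.75 ± 3.93. All 5 netrins had lower fitted values at M6 than at D1 (median -0.74), 5 of 5 under quantile and median-ratio scaling, 4 of 5 without M6 replicate 3 (median -0.48) and 3 of 5 with the mapping rate as a covariate (median -0.20), and none had an unadjusted p under 0.05. NTNG1, a netrin anchored in the membrane that binds a leucine-rich repeat protein and not DCC or UNC5, was at 82.9 FPKM in M4 replicate 2, which held 42.6% of its sum, and at 27.1 in D1 replicate 3. The other 18 libraries held 11.9 FPKM or less. M4 replicate 2 was also the library with the highest sum of thalamic markers, and the part of those markers in the NTNG1 value was not tested. NTN4, a netrin of basement membranes, was at 38.6 FPKM in M4 replicate 1 and at most 10.5 in the other 19.

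SLIT3, a secreted ligand of the ROBO receptors, varied least among the libraries of a stage. Its FPKM was 4.35, 4.22, 5.38, 4.38 and 4.34 at D1 and 3.75, 4.04, 2.62, 2.85 and 3.19 at M2. It was 2.41, 4.80, 2.78, 4.70 and 2.99 at M4 and 2.99, 3.86, 3.30, 3.21 and 3.49 at M6. All M2 and M6 libraries were below all D1 libraries, and 2 of the 5 M4 libraries were within the D1 range. The share of all genes without overlap was 2.84% in M6 vs. D1 and was not computed for M2 vs. D1. The gene lies at chr20:506254-1225801, and its stage means were 4.53 ± 0.477, 3.29 ± 0.598, 3.54 ± 1.13 and 3.37 ± 0.327. The log2 fold change was -0.43 with a standard error of 0.18 in the later stages (limma adjusted p = 0.361) and -0.46 in M2 vs. D1 (adjusted p = 0.309). SLIT2 had means between 3.62 ± 2.17 FPKM at D1 and 6.15 ± 8.14 at M4, the latter with 1 library at 20.6.

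The SLIT receptors ROBO1 and ROBO2, both on chromosome 1 (chr1:24804211-25920329 and chr1:23020295-23681132), had their highest means at M2 and at M4. ROBO1 was at 21.9, 34.6, 14.2, 33.3 and 13.7 FPKM at D1 and at 73.7, 30.2, 23.4, 72.8 and 40.8 at M2. It was at 13.3, 23.1, 41.2, 23.8 and 11.7 at M4 and at 19.97, 26.9, 11.1, 52.2 and 21.4 at M6. The highest libraries were at M2, and each stage overlapped the others. ROBO2 was at 9.22, 13.3, 9.79, 26.3 and 16.4 FPKM at D1 and at 11.4, 14.6, 11.7, 11.8 and 11.7 at M2. At M4 it was at 29.0, 21.7, 26.3, 12.1 and 12.3 FPKM and at M6 at 9.53, 18.2, 4.89, 6.78 and 7.27. For ROBO2 the 3 highest M4 libraries were above every M6 library, and 4 of the 5 M6 libraries were below every M4 library. The log2 fold changes of ROBO1 were 0.99 in M2 vs. D1 (limma adjusted p = 0.271), -1.09 in M4 vs. M2 (0.521) and -0.90 in M6 vs. M2 (0.746). Those of ROBO2 were -1.17 in M6 vs. M4 (limma adjusted p = 0.70) and -0.72 in M6 vs. D1 (0.651).

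Across the families, a larger share of members than of all genes had lower fitted values at M6. In M6 vs. D1, 49 of 67 members (73.1%) had lower fitted values, against 55.1% of all genes, with a median log2 fold change of -0.31 against -0.05. In M6 vs. M2 it was 53 of 67 (79.1%) against 48.1%, with medians of -0.39 and 0.02. One library weighed on both counts: M6 replicate 3 was the lowest of the 20 libraries for 33 of the 67 members, against 15.5% of all genes. Without it, 39 members (58.2%) were lower in M6 vs. D1 with a median of -0.09, and 50 (74.6%) in M6 vs. M2. Without M6 replicate 3, M2 replicate 1 and M2 replicate 3 together, 37 members (55.2%) were lower in M6 vs. M2. The mature neuron genes moved the same way, with 10 of 10 lower in M6 vs. D1 (median -1.14, 2 at an unadjusted p under 0.05, 0 called) and sums of 682 to 1316 FPKM at D1 and 73.7 to 869 at M6; without M6 replicate 3 their median was -0.44, and with the mapping rate as a covariate 6 of 10 were lower (median -0.08). Their part in the lower members at M6 was not tested. In the later stages together, 37 of 67 members (55.2%) were lower, against 56.9% of all genes.

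Groups that did not overlap were few. In M6 vs. D1, SEMA5B and SLIT3 had all 5 D1 libraries above all 5 M6 libraries, 2 of 67 members against a background of 2.84% of all genes in either direction. No member had its 5 D1 libraries apart from all 15 later ones, where the background was 0.143%. 

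Variation within a stage was larger for the members than for genes in general. The SD of log2 values within stages had a median of 0.84 over the members, from 0.27 for SLIT3 to 1.57 for EPHA1, and of 0.57 over all genes tested. The share of a member's variance that lay between stages had a median of 14.7%, against 18.2% over all genes. Stage means also differ by chance, so this uncorrected share is not nil where stage has no effect. Its level by chance was not computed, so the medians are not read as an effect of stage. After SEMA5B the shares were 41.3% for ROBO2, 37.6% for PLXNA2, 37.3% for EPHA5 and 36.7% for SLIT3, and the lowest was 0.284% for SEMA6A. Beside M6 replicate 3, M4 replicate 1 was the lowest library for 12 members (11.1% of all genes) and M4 replicate 2 the highest for 11 (5.6% of all genes).

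**Figure D4:**
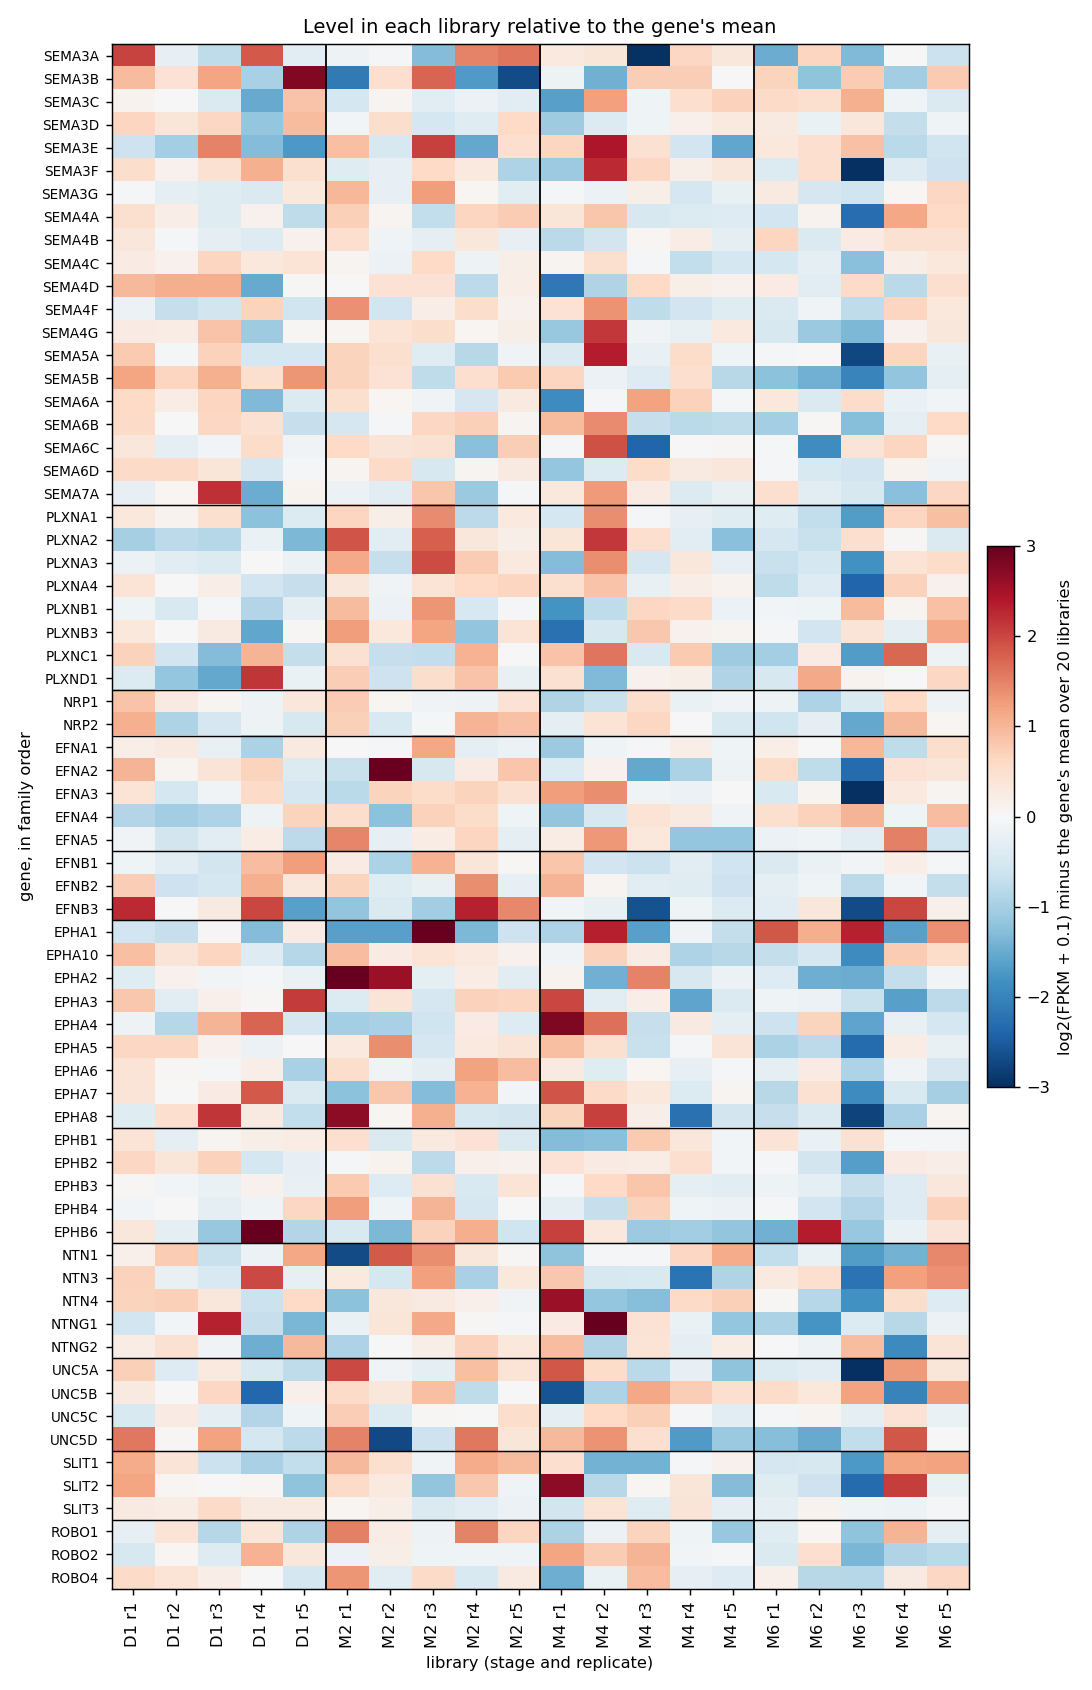
Heat map of log2(FPKM + 0.1) minus the gene's mean over the 20 libraries, with the 67 members as rows by family and the libraries as columns by stage. M6 replicate 3 is the lowest library for 33 of the 67 members, and single regional libraries stand out for EPHB6, NTNG1 and EPHA4.

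To describe this variation, each member was set against the mean log2 level of 5 lists of cell type genes across the 20 libraries, after the stage means had been taken out. This gave 335 relations, and a relation was called where the limma slope of the member on the list, beside the stages, had an adjusted p under 0.05 over all 16771 genes. The mature oligodendrocyte list (12 genes, among them MOG, MAG and MYRF) had 20 of 67 members called (29.9%, background 14.3% of all genes), 9 rising and 11 falling with the list. The immature neuron list (5 genes measured) had 13 (19.4%, background 15.5%) and the endothelial list (10 genes) 5 (7.46%, background 5.59%). The mature neuron list (10 genes) had 2 (2.99%, background 3.52%). The shares for these lists were near those of all genes. For the endothelial list the median size of r was 0.23 over the members and 0.31 over all genes. The astrocyte list (6 genes) had 0 (background 0.00596%). It had 13 members at an unadjusted limma p under 0.05, where the share of all genes was not computed. The members share these libraries, so that the relations are not independent of each other.

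The libraries split into 6 low and 14 high ones in the oligodendrocyte list. SEMA4D, which inhibits growth cones and is made by myelinating cells, was between 4.30 and 19.5 FPKM in the 6 low libraries and between 15.6 and 41.4 in the other 14. UNC5B was between 0.646 and 6.59 FPKM in the 6 and between 4.31 and 10.6 in the 14, and SEMA3D, a secreted semaphorin, between 2.28 and 4.95 and between 3.59 and 10.3. In the opposite direction PLXNC1 was between 12 and 29.0 FPKM in the 6 and between 2.69 and 15.2 in the 14, SEMA4F between 2.20 and 4.28 and between 0.901 and 2.01, and EPHA4 between 8.89 and 126 and between 5.93 and 36.7. SEMA4F was the one of these 6 whose ranges did not overlap. The 6 genes were picked by their r with this same list, and the share of all genes without overlap in this split was not computed, so nothing further is read from it. Within the 14 libraries 0 members were called for this list. There PLXNC1 had r = -0.85 and rho = -0.92 (two-sided permutation p = 9e-05 and 0.0004 within stages, limma adjusted p = 0.0595), and r = -0.88 without the 2 libraries farthest from the median. SEMA4F had r = -0.63 and rho = -0.62 (permutation p = 0.0777 and 0.0639) and EPHA4 r = -0.57 and rho = -0.45 (permutation p = 0.145 and 0.199). For SEMA4D (r = 0.28, rho = 0.17), UNC5B (r = 0.38, rho = 0.17) and SEMA3D (r = 0.38, rho = 0.38) the permutation p of r was 0.455, 0.362 and 0.122, and r turned to -0.34 for SEMA4D and -0.11 for UNC5B without the 2 farthest libraries. Without the 5 regional libraries, 4 of which are among the 6 low ones, 5 members were called. For the 14 libraries and for this set the share of all genes called is not given here, so neither count is read further.

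**Figure D5:**
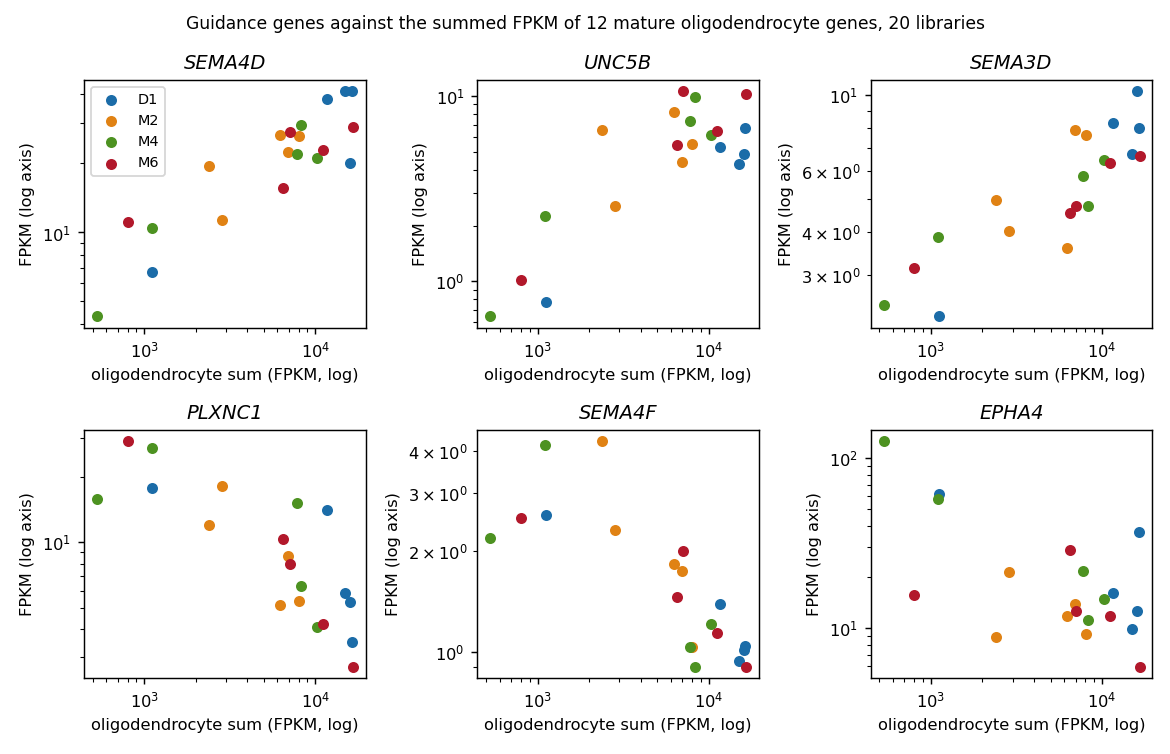
FPKM of SEMA4D, UNC5B, SEMA3D, PLXNC1, SEMA4F and EPHA4 (y axis, log) in each of the 20 libraries against the summed FPKM of 12 mature oligodendrocyte genes (x axis, log), coloured by stage. The 6 libraries with sums up to 2848 FPKM stand apart from the 14 with sums from 6232 FPKM. Of the 6, 5 hold the 5 lowest values of SEMA4D and of UNC5B, and all 6 lie above the 14 in SEMA4F. The genes shown were picked by their r with this list.

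The endothelial list varied over a narrower range, with sums from 47.4 to 159 FPKM. EPHB4 followed it with r = 0.81 and rho = 0.85 over the 20 libraries (two-sided permutation p = 8e-05 and 2e-05, limma adjusted p = 0.0293), and r = 0.66 without the 2 libraries farthest from the median. SEMA3G, a class 3 semaphorin known from vessels, had r = 0.73 and rho = 0.67 (permutation p = 0.00249 and 0.00875, adjusted p = 0.0380), and 0.49 without the 2 libraries. EPHA7 had r = -0.72 and rho = -0.74 (permutation p = 0.0032 and 0.00206, adjusted p = 0.0267), and -0.57 without them. PLXNB3 (r = 0.69, rho = 0.70, permutation p = 0.00162 and 0.00212) and PLXNB1 (r = 0.68, rho = 0.74) made up the 5. EPHA4 (r = -0.52, rho = -0.51) and SEMA3A (r = -0.44, rho = -0.44) followed EPHA7 at the negative end with limma adjusted p of 0.109 and 0.198. Leaving out M2 replicate 3 or M2 replicate 4 left 0 members called for this list, and leaving out M6 replicate 3 gave 10. The share of all genes called in these fits is not given here.

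The immature neuron list (sums from 8.04 to 59.1 FPKM, highest in D1 replicate 4) rose with EPHA7, EFNB3 and SLIT2 and fell with EFNA1, UNC5B and PLXNB3. Values of r were 0.79, 0.79 and 0.78 for the first 3 and -0.86, -0.79 and -0.76 for the others, and those of rho were 0.80, 0.78 and 0.73 and -0.75, -0.55 and -0.55. Their permutation p ran from 7e-05 to 0.00089 for r and from 0.00022 to 0.0194 for rho, and their limma adjusted p from 0.00246 to 0.00594. Without the 2 libraries farthest from the median they were 0.66, 0.82, 0.82, -0.77, -0.64 and -0.59. EPHA7, SLIT2, EFNA1, UNC5B and PLXNB3 were also among the members called for the oligodendrocyte list, in the opposite direction. The mature neuron list had EFNA3 with r = 0.85 and rho = 0.60 (permutation p = 0.00506 and 0.0138, limma adjusted p = 0.00205) and PLXNA4, a class A plexin, with r = 0.77 and rho = 0.72 (permutation p = 0.00372 and 0.0008, adjusted p = 0.0119). EFNA3 rested on M6 replicate 3 and M2 replicate 1, since r was 0.33 without them, while that of PLXNA4 was 0.65. EPHB2 had r = 0.73 and rho = 0.72 (permutation p = 0.0152 and 0.00163) with a limma adjusted p of 0.0690, and EFNA4, PLXNB1 and EPHB1 were at the negative end with r of -0.44, -0.41 and -0.37 (limma adjusted p = 0.377, 0.386 and 0.448). With astrocyte genes, SEMA6D had r = 0.70 and rho = 0.63 (permutation p = 0.00795 and 0.0158), which did not hold after adjustment (limma adjusted p = 0.25). Next in size were NRP1 and SEMA3D with r of 0.56 and 0.52, and on the negative side PLXNA2, EPHA4 and EPHA8 with -0.58, -0.53 and -0.53, with limma adjusted p from 0.30 to 0.375.

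Among other genes of guidance none was called in the later stages vs. D1, where the background was 11.7% of all genes at an unadjusted p under 0.05. Of 26 other cues and co-receptors tested, 0 were called and 3 had an unadjusted limma p under 0.05, with 13 higher and 13 lower. DSCAM (log2 fold change 0.81, adjusted p = 0.417) and RGMA (0.78, adjusted p = 0.356) were the highest and FLRT3 (-0.77, adjusted p = 0.461) and FLRT2 (-0.53, adjusted p = 0.589) the lowest. Of 39 intracellular effectors, 0 were called, 7 had an unadjusted p under 0.05, and 17 were higher and 22 lower. CDC42, a small GTPase that drives filopodia, had an adjusted p under the threshold, 0.0440, with a log2 fold change of -0.69 (standard error 0.13) that is under the minimum size, and means of 113 ± 13.8 FPKM (D1), 65.8 ± 11.7 (M2), 77.9 ± 10.6 (M4) and 67.6 ± 7.57 (M6). RHOA, the GTPase of growth cone collapse, had a log2 fold change of -0.73 (adjusted p = 0.294), FARP2, a plexin-bound exchange factor, 0.74 (adjusted p = 0.374) and SRGAP2, a SLIT-ROBO GTPase activator, 0.65 (adjusted p = 0.244).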

How the data were processed

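Hypothalamic RNA of 20 goats, 5 per stage, was sequenced as 1 strand-specific library per goat. Per the submitters' processing notes the authors used HISAT2 2.0.5 and StringTie 1.3.3b, and the deposited values are FPKM per gene. Low FPKM values were not whole multiples of a step, so the depth behind each value is unknown, and precision is given by the SD over replicates and the fitted standard errors. The p values of the stage comparisons set the difference between stages against the spread among libraries of a stage, 1 library per goat. That spread includes the differences in marker genes between libraries described above.

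Gene IDs were matched to RefSeq gene symbols of ARS1.2 (20610 of 21071 matched a symbol and 461 did not). The 16771 genes that reached 0.1 FPKM in 5 or more libraries were put on a log2(FPKM + 0.1) scale. They entered 1 limma fit (version 3.58.1, R 4.3.3) of the 4 stages, with a variance trend and Benjamini-Hochberg adjustment over all genes. Fold changes are on this scale and understate those of low genes. The fit was tested on simulated data. Levels of cell type lists are means of log2 values. Their slopes were fitted beside the stages, and permutation p values (100000 permutations within stages) are unadjusted. The planned adjustment over the members alone was not used. Tools were Python 3.11.15 with scipy 1.17.1, numpy 2.4.6, matplotlib 3.10.9 and pandas 2.3.3.

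The members and lists were chosen with earlier results of these data known. Values are given for the 2 members highest in mean FPKM per family, the 5 highest and 5 lowest fold changes in the later stages among members with a mean of at least 1 FPKM, members whose groups do not overlap or with most FPKM in 1 library, and the 3 highest and lowest correlations per list. Members with an unadjusted p under 0.05 were added after their values were seen. Alternatives were the pseudocount, filters, the libraries fitted, scaling, the trend, quality weights, the replicate block, the mapping rate, the threshold and libraries left out. The oligodendrocyte covariate and leaving out the regional or the 6 low libraries were added after the data were seen. The authors' lncRNA values were not analysed here.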

Additional observations from a re-analysis of the deposited data

Results flagged for a closer look

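For the 32 members whose values by stage are given, the 5 libraries of each of 128 member and stage groups were tested for a single library far from the others by Dixon's criterion (95% critical value 0.71), and 25 groups met it. Chance meets it in about 1 of 20 groups of normally distributed values, but FPKM values are skewed, and some of the 32 members are given because 1 library held much of their sum, so that rate is not the one to read the count against. Over all 16771 genes tested 13.4% of the groups met it, and over all 67 members tested 16.8% did. M4 replicate 1 held 5 of these values: EPHA3 at 9.63 FPKM (next library 2.71), EPHA7 at 29.6 (11.8), EPHB6 at 9.15 (2.67), NTN4 at 38.6 (10.5) and SLIT2 at 20.6 (4.01). M4 replicate 2 held 4, SEMA3E at 42.3 FPKM (12.2), SEMA3F at 5.03 (1.56), PLXNA2 at 51.5 (16.8) and NTNG1 at 82.9 (7.32). These 2 libraries had the highest sums of cortical and of thalamic markers, and the part of those markers in the values was not tested.

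Among the D1 libraries, replicate 3 was high for SEMA3E (22.1 FPKM), NTNG1 (27.1) and SLIT3 (5.38), replicate 5 for SEMA3B (19.5), EPHA3 (10.4) and EPHB4 (1.48), replicate 4 for EPHA7 (28.8) and EPHB6 (27.2), and replicate 1 for NRP2 (15.9). At M6, replicate 4 was high for EFNA5 (15.1 FPKM), EFNB3 (29.1) and SLIT2 (13.5), and replicate 2 for EPHB6 (11.4). M2 replicate 2 was high for ROBO2 (14.6 FPKM, next 11.8). Only EFNA3 in M2 replicate 1 (0.661 FPKM, next 1.73) and EFNB3 in M4 replicate 3 (1.09, next 5.42) were set apart by a low value.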

How the results depend on the processing

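No member was called in any stage comparison in the analysis reported, and the alternatives that gave another count gave 1. With library quality weights 1 member was called in M2 vs. D1, SEMA3B (log2 fold change -2.72, limma adjusted p = 0.0349), which was chosen after its value was seen and had adjusted p up to 0.952 under the 33 other alternatives. These weights called 148 of all 16771 genes in M2 vs. D1, against 0 in the analysis reported. SEMA5B was the 1 member called in M6 vs. D1 with quality weights, the oligodendrocyte covariate, median-ratio scaling and variances without a trend, and in the later stages and the test of any difference with quality weights and the oligodendrocyte covariate. In this order the alternatives called 95, 58, 2 and 3 of all genes in M6 vs. D1, against 1 in the analysis reported. In the later stages, quality weights and the oligodendrocyte covariate called 223 and 90 of all genes, against 10. Leaving out single libraries gave 0 to 1 members in M6 vs. D1 and 0 in the other tests. The log2 fold change of SEMA5B in M6 vs. D1 ran from -2.40 to -1.55 over 34 alternatives and was past the threshold in 10, with adjusted p from 0.000449 to 1.00 (with the mapping rate and the replicate block). With the replicate block alone 0 members were called, and SEMA5B had -2.16 in M6 vs. D1 (adjusted p = 0.0575). The replicate numbers were not taken as pairs: the deviations of same-numbered libraries correlated between -0.25 and 0.43 over 30 pairs (median -0.01), with 7 above 0.1. The direction of 3 differences in the later stages turned: EFNB3 to 0.81 with the mapping rate and 0.63 with the mapping rate and the block, PLXNB1 to -0.28 and -0.36, and EFNA4 to -0.32 with both. The cause was not tested. The numbers of members following a cell type list depended on the libraries. The share of all genes called is not given here for the reduced sets, so these counts are not set against it. For the oligodendrocyte list, 20 became 5 without the 5 regional libraries, 0 without the 6 low ones, and 13 (without M4 replicate 1) to 21 without single libraries. For the endothelial list, 5 became 11 without the 3 libraries M2 replicate 1, M2 replicate 3 and M6 replicate 3, 0 without the 5 regional, 0 without the 6 low ones, and 0 to 10 without single libraries. For the immature neuron list, 13 became 3 without the 5 regional, 0 without the 6 low ones, and 7 (without M4 replicate 1) to 17 without single libraries. For the mature neuron list, 2 became 0 without those 3 libraries, 5 without the 6 low ones, and 0 (without M6 replicate 3) to 7 (without M2 replicate 1) without single libraries. A count by Spearman's rho was not run, and rho is given per member. Fewer libraries also leave fewer degrees of freedom, and with a median standard error of 0.50 on the log2 scale in comparisons of 2 stages, differences under 2-fold were mostly within the error.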
